A study of Mus musculus with 12 samples.

Results

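RNA bound to the ribosomes of rod photoreceptors was compared with RNA of the whole retina in the heterozygous control mice of the study. The 6 libraries with this genotype, of 12 in the series, were 3 of rod TRAP RNA and 3 of retina RNA, and 16110 of 56748 genes passed the filter on low values and were tested. The mice were 2 weeks old and carried RiboTag, i75-Rod-Cre and 1 floxed and 1 intact allele of Shp2 (Shp2fl/+). RiboTag adds an HA epitope to the ribosomal protein Rpl22 where Cre is active, all mice were homozygous for it, and a rod-specific promoter drove Cre. The sample titles call these mice wt, while the genotype given for them is heterozygous, so that their rods carry 1 copy of Shp2 (gene symbol Ptpn11) and no library comes from a mouse without Cre. The KO mice, which were littermates with 2 floxed alleles (Shp2fl/fl) and otherwise the same RiboTag and Cre, are used only for values set beside those of the Het mice.

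Translating ribosome affinity purification (TRAP) pulls tagged ribosomes out of a tissue lysate with an antibody to the HA epitope, so that mRNA of the Cre-expressing cell type is recovered without sorting cells. Rods are the most numerous cells of the mouse retina. They build a stack of light-sensing discs on a modified cilium, keep their mitochondria in the inner segment, hold an unusually compact nucleus, and release glutamate at a ribbon synapse onto bipolar and horizontal cells. Each rod gene is therefore already present in whole-retina RNA, and a difference between the fractions is a difference between rod ribosome-bound RNA and a mixture that contains rods. In such a mixture, fewer cells of a type and less RNA per cell cannot be told apart. The question of this comparison was which classes of genes, gene families and cell types, beyond the known photoreceptor markers, were higher or lower in the rod fraction.

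Totals of the deposited values were nearly the same within a fraction, between 14526442 and 14527803 for retina and between 16263987 and 16265259 for rod TRAP, because the values had been scaled. Reads behind them, estimated from the spacing of low values, were about 12912393 to 17295004 for retina and 13497085 to 25295893 for rod TRAP, with the factor of retina replicate 3 (0.9995) not told from another (0.496). Levels below are TMM-scaled values, given as mean ± SD with n = 3 for each group, and differences are log2 fold changes of rod TRAP over retina on the log2(value + 2) scale, which understates the change of low genes. A gene was called higher or lower at an adjusted p below 0.05 with a difference of more than 0.5 on that scale (limma, Benjamini-Hochberg adjustment over all genes tested). No source names which libraries came from the same mouse, so the p-values measure the spread between these samples. The rod markers were the check of the labels. Gnat1, the alpha subunit of transducin, stood at 384802, 430149 and 438019 in the rod libraries and at 111192, 126114 and 94273 in the retina libraries. Sag, the rod arrestin, was at 244744 ± 48078 in rods and 70992 ± 10217 in retina. All 15 rod markers were called higher, with a median of 1.78.

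Of the genes tested, 3453 were higher in the rod fraction (21.4%) and 5923 were lower (36.8%). These shares are the background against which every list below is read. The 2 directions differed in size. A fall of more than 4 on the log2 scale was seen in 1761 of the genes called lower, whereas 23 of those called higher exceeded 2 and 1032 exceeded 1. The median of all genes was -0.11, and it became -0.51 when libraries were scaled by their totals alone, a shift of -0.40 that left 1157 genes higher and 7417 lower and moved the share of higher genes among those called from 36.8% to 13.5%. Directions below are therefore relative to TMM scaling. In the KO mice, whose libraries are separate from those of the Het mice, 4144 genes were higher (25.7% of 16121) and 5889 lower (36.5%). Of the Het calls, 2822 higher genes were also higher in KO, which is 81.7% of the Het list and 68.1% of the KO list, and 5237 lower genes were also lower, 88.4% and 88.9% of these lists. No gene was called in opposite directions in the 2 genotypes (0 genes).

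The markers of other cell types fell, and cone markers had the smallest median fall. Of 11 tested, 10 were lower and their median was -1.03, against medians of -4.90 for Müller glia (14 of 14 lower), -5.0 for bipolar cells (12 of 14), -4.79 for amacrine cells (11 of 11), -5.0 for ganglion cells (10 of 10), -3.53 for horizontal cells (8 of 8) and -5.46 for astrocytes (4 of 4). The order among the other types depended on the pseudocount. With pseudocounts of 0.5 and 8 the horizontal median was -4.60 and -2.45 and the microglial median was -5.40 and -2.47, and that of endothelium -5.20 and -2.08, while that of Müller glia was -4.97 and -4.75. Summed over the 11 genes, cone markers were at 8447, 10538 and 11739 in the rod libraries and at 18555, 19318 and 16157 in retina, so that the rod fraction held 56.9% of the retina level. Arr3, the cone arrestin, was at 802 in rods and 1861 in retina, and the cone opsin Opn1sw at 2439 and 5055. The summed Müller markers were at 4.79% of the retina level, the ganglion markers at 3.97% and the amacrine markers at 5.34%. The sums were higher for horizontal cells (14%), microglia (33%) and bipolar cells (51.1%, of which most was Otx2 and Prkca, described below). Glul, the glutamine synthetase of Müller glia, was at 1000, 1451 and 1519 in rods against 21483, 30472 and 25305 in retina.

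Cells of vessels and of neighbouring tissues were low as well. Endothelial markers (10 of 10 lower, median -3.71), retinal pigment epithelium (9 of 9, -3.23), red blood cells (5 of 5, -4.40) and microglia (9 of 10, -4.03) all fell. Defining markers listed at 0 in every rod library included the endothelial Cdh5 and Cldn5, the microglial C1qc, the horizontal cell factor Onecut1 and, among markers that did not pass the filter, the astrocyte factor Pax2. Markers of neutrophils and lymphocytes were too low to be tested (0 of 7).

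**Figure D1:**
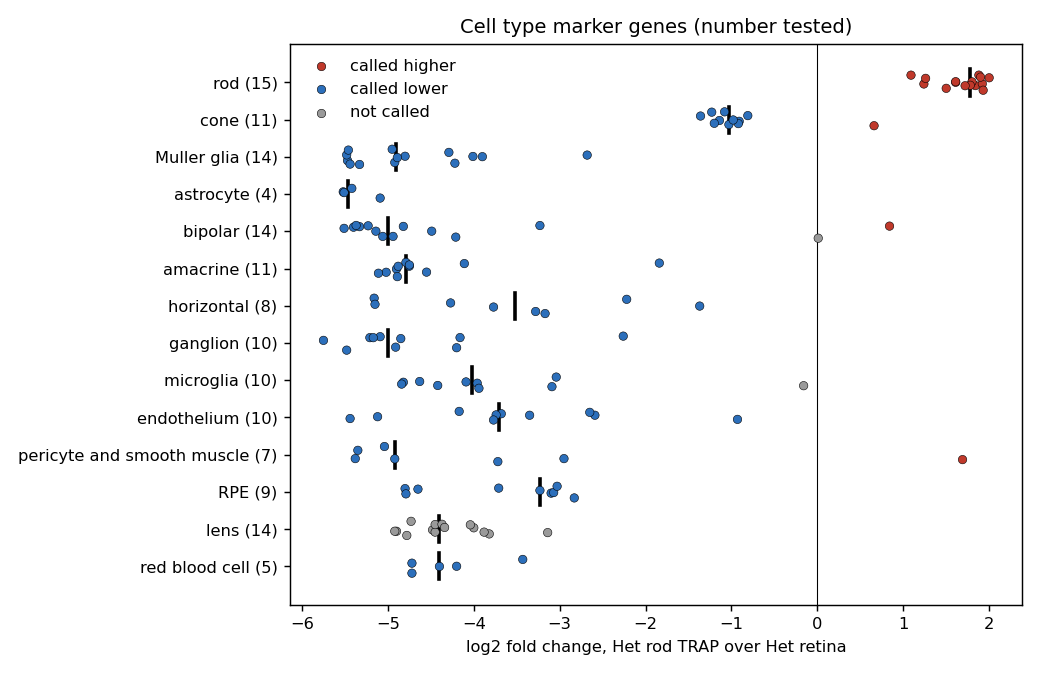
Log2 fold change of Het rod TRAP over Het retina (horizontal axis) for each tested marker gene of 14 cell types (rows, number tested in parentheses). Each point is a gene, coloured by its call, and the black bar is the median of the list. Rod markers lie to the right of 0, cone markers near -1, other cell types mostly below -3, and the lens markers are low but not called.

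A few genes went against the list they stand in. Vtn, which encodes vitronectin and was listed for pericytes, was called higher by 1.69 (SE 0.24, adjusted p = 0.00032), at 22061, 30559 and 30121 in rods and 8317, 12081 and 6055 in retina, and because of it the summed pericyte list was at 273% of the retina level while its other 6 tested members fell. Otx2, a transcription factor shared by bipolar cells and photoreceptors, was higher by 0.84 at 5611 ± 162 against 3139 ± 112. Prkca, the kinase commonly used to stain rod bipolar cells, was at 4721 ± 747 in rods and 4680 ± 693 in retina, a difference of 0.01 (SE 0.16) with overlapping groups. Thrb, the thyroid hormone receptor of cones, was the cone marker called higher, by 0.66 (limma adjusted p = 0.0038). With scaling by totals neither Otx2 nor Thrb was called. The lens markers had the widest spread. Their sum was 153 in retina replicate 1 but 259184 and 232847 in replicates 2 and 3, and 6.49, 3911 and 5580 in the rod libraries in the same order. None of the 14 lens genes tested was called although their median was -4.41, and with the replicate number as a block all 14 were called lower (7 when the GC trend was removed as well). The median was -7.35 without retina replicate 1, where 6 were called, -2.60 without retina replicate 2, -2.94 without retina replicate 3 and -2.30 without rod TRAP replicate 1.

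Transcription factors of other retinal cells behaved as their cells did. Of 31 tested, 29 were lower and none was higher, with a median of -4.27. Pax6, needed for amacrine and ganglion cells, was at 117, 117 and 128 in rods against 2981, 3359 and 3532 in retina. The difference was -5.16 for Prox1, a factor of horizontal and amacrine cells. Meis2, a homeobox factor, was the most abundant member and was not called, at 2061 ± 224 and 1794 ± 90. The 22 receptors for GABA and glycine tested were all lower (median -4.39), with the least fall in Gabbr1, a subunit of the metabotropic GABA receptor, at -0.64. Of 25 glutamate receptor genes, 23 were lower and 1 was higher. That gene was Grm8, a group III metabotropic receptor, at 1040, 831 and 963 in rods and 535, 386 and 508 in retina.

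Ion channel families fell with a few exceptions. Of 65 potassium channel genes tested, 60 were lower, 3 were higher and the median was -4.14. The rises included Kcnv2, which encodes the silent subunit Kv8.2, and Kcnj14, an inward rectifier. Kcnv2 was at 26060 ± 1448 against 10572 ± 821 (1.30, SE 0.11) and Kcnj14 at 18931 ± 802 against 8819 ± 1630 (1.12). Of 23 calcium channel genes, 20 fell and again 3 rose, namely Cacnb2 (1.17), Cacna2d4 (0.95) and Cacna1f (0.57), which encode subunits of the L-type channel of the photoreceptor synapse. Cacna1f was not called with scaling by totals or without rod TRAP replicate 3. Cacna1g, a T-type channel, was at 12.4 in rods and 530 in retina. Among 12 sodium channel genes, Scn4a alone was higher, at 963, 1440 and 1076 against 452, 760 and 314, and the other 11 fell. Of 15 Trp genes, 11 fell and 3 rose. Trpc1 rose by 1.64, at 7317 ± 559 against 2356 ± 287, whereas Trpm1, the transduction channel of ON bipolar cells, fell by 5.33. Of 13 acetylcholine receptor genes, 10 fell, and Chrna5, a nicotinic subunit, rose by 1.83 at 338, 388 and 336 against 96.2, 117 and 83.0. In Grm8, Scn4a and Chrna5 every rod library was above every retina library. Groups that did not overlap, in either direction, were found in 11044 of the 16110 genes tested (68.6%).

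Genes of the cell surface and of wiring fell almost as families. By gene symbol, no protocadherin was higher (49 of 61 lower, median -2.17), nor any cadherin (15 of 16). The same held for ephrins and Eph receptors (20 of 21 lower) and for semaphorins and plexins (21 of 28). Cdhr1, a protocadherin of the disc rim described below, stands outside these symbol families and rose. Of 33 collagens, 26 fell, and of 29 extracellular matrix genes, 23 fell and 2 rose. The 2 were Impg1 and Impg2, proteoglycans of the matrix around photoreceptor outer segments, at 27533 ± 913 against 7425 ± 608 and at 23392 against 7031. Genes of complement and interferon response fell in 19 of 24. B2m, the light chain of MHC class I, was at 7.58, 7.70 and 18.7 in rods against 425, 488 and 962 in retina. Cd59a, which blocks the terminal complement complex, was the member called higher, by 1.24 at 2445 ± 201 against 1035 ± 64.2. The MHC family had 10 of 13 members lower and none higher.

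Several housekeeping machines moved the other way. All 8 subunits of the chaperonin TRiC, which folds actin, tubulin and other proteins, were higher, from 0.69 for Tcp1 to 1.31 for Cct4, and their median was 1.0. Of 16 chaperones of the endoplasmic reticulum, 13 were higher (median 0.93), including Pdia4 (1.4), Calr (1.17), Hsp90b1 (1.16) and Hspa5 (1.11), whereas the co-chaperone Dnajb9 was lower (-0.74), a call lost without retina replicate 1 or 3 or rod TRAP replicate 1 or 2. Genes that bring proteins into the endoplasmic reticulum were higher in 15 of 23 with none lower (median 0.64), among them Srp54a of the signal recognition particle (1.13). N-glycosylation genes were higher in 12 of 21, including the oligosaccharyltransferase subunits Rpn1 (1.23) and Stt3b (1.1). Proteasome subunits were higher in 23 of 35 (median 0.67). The subunit called lower was Psmb10, a catalytic subunit of the immunoproteasome, at 14.2 in rods and 53.8 in retina. When libraries were scaled by their totals alone, the members called higher fell to 5 of 8 for TRiC, 8 of 16 for the chaperones, 2 of 23 for protein entry, 4 of 21 for N-glycosylation and 4 of 35 for the proteasome.

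**Figure D2:**
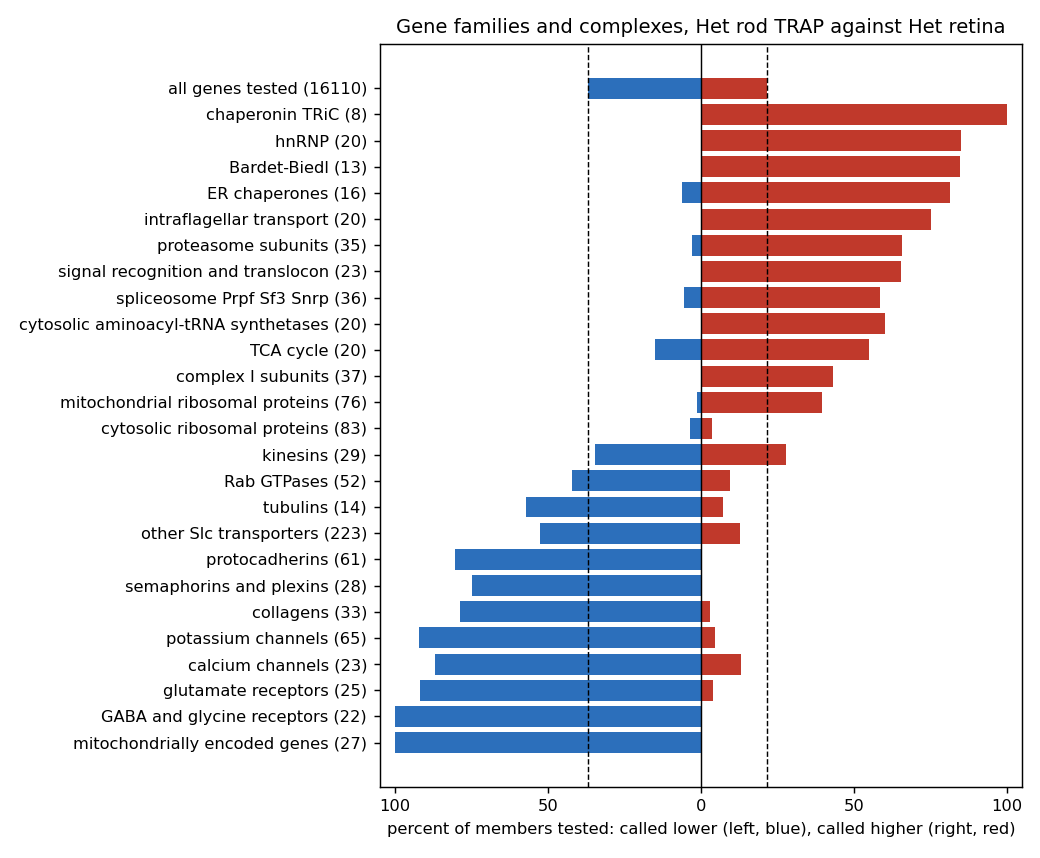
Percent of tested members of each family or complex called lower (blue, to the left) and higher (red, to the right) in Het rod TRAP against Het retina, with the number tested in parentheses. Dashed lines mark the shares over all genes tested, 36.8% lower and 21.4% higher. Protein folding, splicing and cilium families reach past the higher line, and channels, receptors and adhesion families past the lower line.

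The translation machinery was not uniform. Factors that start translation were higher in 8 of 9 for eIF2 and eIF2B (median 0.60) and 7 of 13 for eIF3 (0.53), and aminoacyl-tRNA synthetases in 12 of 20 (0.61), with no member lower in these groups. Elongation and termination factors were higher in 1 of 11 (median 0.09). Cytosolic ribosomal proteins were seldom called, with 3 of 83 higher, 3 lower and a median of -0.14, against the 21.4% and 36.8% of all genes. Without retina replicate 3, 8 were higher, and without rod TRAP replicate 1, 6. The median was 0.11 without retina replicate 2, 0.07 without rod TRAP replicate 1 and 0.06 with the GC trend removed. With the replicate block 8 were lower, and with scaling by totals 27 were lower and none was higher. The tagged protein's own gene, Rpl22, was at 1990, 2257 and 2219 in rods and 1500, 1598 and 1740 in retina, a difference of 0.42 (SE 0.11, adjusted p = 0.011) that was under the size required for a call. With libraries scaled by their totals, 2 of 9, 1 of 13 and 2 of 20 members of the first 3 groups were called higher.

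Nuclear and mitochondrial genes of the same organelle differed. All 27 mitochondrially encoded genes tested were lower, with a median of -5.88. These mRNAs are made and translated inside mitochondria, on ribosomes that do not contain Rpl22. They took 7.02%, 5.52% and 9.88% of the 3 retina libraries and 0.0867%, 0.0661% and 0.0880% of the 3 rod libraries (exact two-sided permutation p = 0.1, the smallest that 3 against 3 samples allow). mt-Co1 was at 241896, 201255 and 376627 in retina against 5077, 3847 and 4626 in rods. Nuclear genes for the same respiratory complexes were higher in 16 of 37 for complex I (median 0.42), 5 of 9 for complex III (0.70) and 8 of 17 for ATP synthase (0.50), with none lower. With scaling by totals these counts were 4, 1 and 2. Complex IV had 3 higher and 3 lower of 14, with 6 higher without retina replicate 2 or with the GC trend removed, and 5 higher without rod TRAP replicate 1. Its higher members were Cox5a (1.01), Cox5b (0.72) and Cox6a1 (0.64, not called without rod TRAP replicate 2 or 3), and the lower ones were Cox4i2, Cox6b2 and Cox8b, tissue-restricted forms of their subunits. Mitochondrial ribosomal proteins were higher in 30 of 76 (median 0.40, and -0.01 with scaling by totals). Of 20 genes of the tricarboxylic acid cycle, 11 rose, including Dld (1.15) and Sdha (1.0), while Suclg2, the GTP-forming succinyl-CoA ligase subunit, was at 15.7 in rods against 223 and Sucla2, its ATP-forming counterpart, rose by 0.99. With scaling by totals 3 of the 20 were higher.

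**Figure D3:**
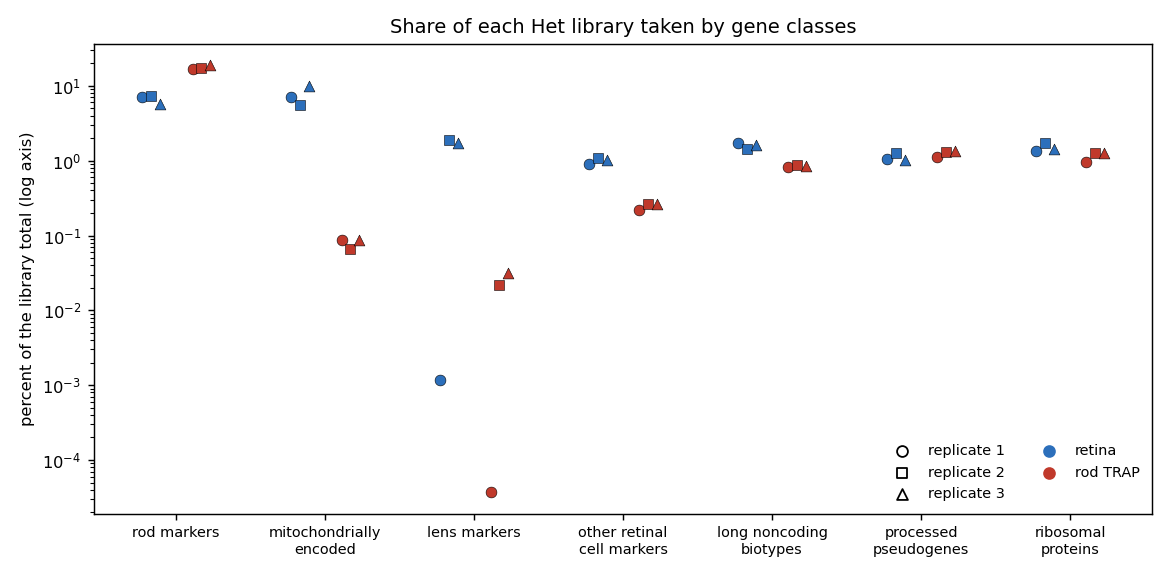
Share of the library total, in percent on a log axis, taken by 7 gene classes in the 3 Het retina libraries (blue) and 3 Het rod TRAP libraries (red), with marker shapes for the replicate numbers. The mitochondrially encoded share lies near 0.08% in rods and at 5.52% or more in retina, and replicate 1 is lowest for lens markers in both fractions.

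Seen per length of transcript, the top of the 2 fractions differed. The highest genes of the rod fraction included Gnat1 and Sag, at 179406 and 142376 scaled units per kilobase, and the next included Gnb1, the beta subunit of transducin, at 88380. In the retina the highest were mt-Co1 at 176867 and mt-Cytb at 160534 per kilobase. The predicted genes Gm10925, Gm29216 and Gm28661 also stood among the top 10 of the retina. Their values moved with those of the mitochondrial genes (-6.45, -5.70 and -6.02), and reads shared with near-identical mitochondrial sequence cannot be told apart from their own.

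Glycolysis had 8 of 21 genes higher and 4 lower (median 0.74), 13 higher with the replicate block or with the GC trend removed, 14 higher without retina replicate 2, and 5 higher and 6 lower with scaling by totals. Hk2, the hexokinase known for its high level in photoreceptors, was at 25742, 28042 and 24655 in rods and 8838, 10010 and 6299 in retina (1.67, SE 0.17). Its partner Hk1 rose by 1.41, the lactate dehydrogenase subunit Ldha by 1.39 and the monocarboxylate transporter Slc16a1 by 1.58. Pfkm, the muscle form of phosphofructokinase, fell by 1.92, Ldhb by 0.71 and the neuronal glucose transporter Slc2a3 by 3.10. Of 20 genes for very long chain fatty acids and acyl remodelling, 6 rose and 13 fell. Elovl4, the elongase that makes the very long chain polyunsaturated fatty acids of discs, was at 33075, 31080 and 30949 against 9240, 8470 and 9844 (1.79), Elovl2 rose by 1.44 and the acyltransferase Agpat3 by 1.45. Elovl5 was at 33.6, 30.8 and 26.4 against 431, 475 and 546 (-3.91). Sterol synthesis had 4 of 22 higher and 5 lower. Insig1, a sterol sensor, fell by 2.71. Of 19 iron genes, 9 fell, among them the ferroxidase Cp by 5.84 and the ferritin heavy chain Fth1 by 1.47, while the transferrin receptor Tfrc rose by 0.64.

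Of 223 solute carriers outside the mitochondrial family, 117 fell and 28 rose (median -1.0). Slc24a1, the sodium-calcium exchanger of rod outer segments, was at 96030 against 26673 (1.85) and Slc17a7, the vesicular glutamate transporter VGLUT1, at 48092 against 22071 (1.16). Of 20 retinoid genes, 7 rose and 12 fell. The retinol dehydrogenase Rdh12 rose by 1.79 and the retinoid flippase Abca4 by 1.31, while Rlbp1, the retinal binding protein of Müller glia, was at 157 against 4666. Purine and cGMP metabolism had 7 of 22 higher and 6 lower (3 and 8 with scaling by totals), with Nt5e, the ecto-enzyme that makes adenosine, at 1.64 and Impdh1, the first step of GTP synthesis, at 1.35. Phosphoinositide genes rose in 10 of 21 and fell in 3 (4 and 6 with scaling by totals), among the rises the lipid kinase Pip4k2c (1.34) and the kinase subunit Pik3r1 (1.03). Of 68 Gpr and Adgr receptor genes, 59 fell and 6 rose, and Gpr152, an orphan receptor, was the highest of the rises at 3024 against 1250 (1.31).

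Within several families, one member was higher and another nearly absent from the rod fraction. The dynein intermediate chain Dync1i2 was at 7633, 5915 and 5343 in rods and 2618, 2029 and 2165 in retina (1.46), and the neuronal form Dync1i1 at 11.9, 14.3 and 23.1 against 442, 611 and 537 (-4.88). The kinesin Kif1b rose by 1.1 at 38080 ± 2846 against 17815 ± 1431, whereas Kif5a and Kif5c fell by 4.59 and 4.31. Stx3, the syntaxin of ribbon synapses, rose by 0.91, and among Rab GTPases Rab28 rose by 0.90 and Rab3c fell by 4.70. Eef1a1 was alike in both fractions to within its error (0.05, SE 0.14), while Eef1a2, the form of mature neurons and muscle, fell by 5.29. Among tubulins, Tubb5 rose by 0.73 with overlapping groups, a call lost without rod TRAP replicate 2 or 3, and Tubb2a and Tubb4a fell by 5.97 and 5.55. These genes were picked after their values were seen, as members at the ends of their families. Kinesins as a family had 8 of 29 higher and 10 lower, and dynein chains 8 of 27 and 9.

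**Figure D4:**
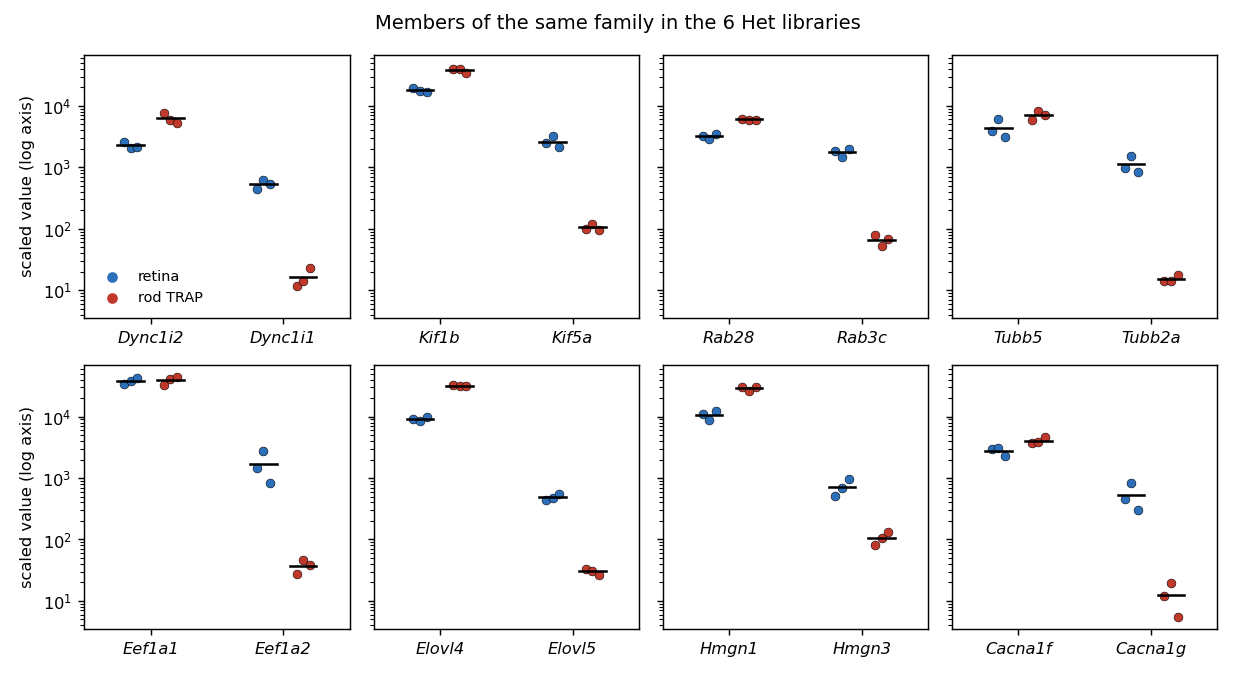
TMM-scaled values (log axis, not divided by transcript length) in the 3 Het retina (blue) and 3 Het rod TRAP (red) libraries for 8 pairs of genes of the same family, with bars at the group means. In each panel the left gene has a mean in rods at or above that in retina, and the right gene is lower in all 3 rod libraries than in any retina library.

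Synaptic genes followed this division. Of 19 genes of the conventional presynapse, 15 fell with a median of -4.45, among them Syn2 at 11.9, 7.70 and 12.1 against 488, 527 and 464. Sv2b, a vesicle glycoprotein, and Syp, synaptophysin, were the 2 called higher (1.47 and 0.83), and Syt1, the calcium sensor, differed by 0.42 and was not called. Of 22 genes listed for the photoreceptor presynapse, 16 rose (median 0.88), and 10 with scaling by totals. Cplx4, a complexin of ribbon synapses, stood at 28615 ± 1104 against 8537 ± 1185 (1.75). Its relative Cplx3 was lower by 1.83 at 1256 ± 95.4 against 4578 ± 1283, and the active zone protein Bsn differed by -2.28. Rab GTPases, which direct vesicle traffic, had 22 of 52 lower and 5 higher (3 without retina replicate 2), with Rab28, a Rab of the outer segment, among the rises.

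Families of the cilium differed. Of 13 Bardet-Biedl genes, which form a coat for ciliary membrane proteins, 11 rose with a median of 1.22. Bbs7 was at 8008, 6957 and 7448 against 2525, 1965 and 2366, and Arl6, the GTPase that recruits the coat, rose by 1.69. Intraflagellar transport genes rose in 15 of 20 (median 0.82), with Ift74 at 1.42 and Ift80 at 1.31. With scaling by totals 9 of each group were higher. Centrosomal Cep genes had 11 of 37 higher and 6 lower (2 and 11 with scaling by totals, and 3 lower without retina replicate 1 or rod TRAP replicate 2), and genes of polyglutamylation and tubulin modification 4 of 19 higher and 4 lower. Rpgrip1, a protein of the connecting cilium, was an exception in the list of cilium kinases and signalling, lower, with a difference of -1.0, at 4162 against 8516, while 15 of the 31 genes of this list rose (7 with scaling by totals). Single genes moved in both directions. Mns1 was at 488, 421 and 400 against 143, 140 and 99.8 (1.77), Ccdc113 at 450 ± 24.8 against 132 ± 16.9 (1.76) and the dynein light chain Dynlrb2 at 63.8 against 14.4 (2.04), whereas the axonemal heavy chains Dnah1 and Dnah11 fell by 3.21 and 2.46.

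RNA processing families differed. Of 20 hnRNP genes, 17 were higher and none lower (median 0.82), and Hnrnpa2b1 was at 15887 ± 1381 against 7291 ± 681. Spliceosome genes of the Prpf, Sf3 and Snrp families rose in 21 of 36 (0.68). The 2 that fell were Snrpn, a neuronal form of SmB, (-3.0), and Snrnp70 of the U1 particle (-2.76). SR proteins had 4 of 11 higher and 3 lower (1 and 4 with scaling by totals). Among neuronal splicing regulators 16 of 28 were lower, such as Nova1 (-4.77) and Rbfox2 (-5.10), while Mbnl2 rose by 0.94 and Msi2 by 0.65. Nucleoporins rose in 13 of 20 and mRNA decay factors in 11 of 25. Scaling by totals left 8 hnRNP, 5 spliceosome, 3 decay and 1 nucleoporin genes called higher.

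Long noncoding transcripts and miRNA host transcripts were more often lower than higher, and processed pseudogenes were not. Long noncoding biotypes took 0.832%, 0.863% and 0.840% of the rod libraries and 1.70%, 1.44% and 1.61% of the retina libraries (exact two-sided permutation p = 0.1). Of 420 lincRNA genes tested, 216 fell and 48 rose. Of 18 long noncoding RNAs listed by name, 13 fell and none rose (median -2.53). Meg3 was at 96.3, 80.3 and 128 against 3829, 3266 and 3370, and Norad fell by 2.06. All 9 tested host transcripts of miRNAs fell, including Mir124a-1hg (-4.78) and Mir124-2hg (-1.7). Processed pseudogenes had 318 of 1012 higher and 62 lower (median 0.46).

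Chromatin genes mixed rises and falls. Hmgb2, a DNA-bending protein, was at 3008, 2484 and 2941 against 719, 541 and 802 (2.04, SE 0.16), the nucleosome binding proteins Hmgn1 and Hmgn2 rose by 1.44 and 1.15, and Samd7, a partner of Polycomb in rods, by 1.61. Hmgn3 fell by 2.71, Cbx5, which encodes HP1 alpha, by 2.38 and Lmna, the A-type lamin that mature mouse rods are known to lack, was at 0 in rod replicates 1 and 3 and at 1.1 in replicate 2 against 24.1, 63.9 and 31.7. Of 12 replication-dependent histone genes tested, 8 rose and 2 fell (5 and 2 with scaling by totals). H2bc4 was at 1983 ± 99.6 against 726 ± 80.7 and H2bc21 at 24.8 ± 3.89 against 347 ± 35.3. The poly(A) state of histone mRNA differs between members and libraries were made from polyA RNA. Polycomb genes rose in 8 of 21, such as Rbbp4 (1.01) and Eed (1.02), and fell in 3 (3 and 7 with scaling by totals). Gadd45a, linked to DNA demethylation, rose by 1.48 while Tet1, a methylcytosine dioxygenase, fell by 2.93. In the proliferation list 7 of 16 rose, including Bub1b (1.65) and Pcna (1.29), and 1 fell. The counts were 4 and 1 without rod TRAP replicate 3, and 3 and 4 with scaling by totals. Cyclins and their inhibitors fell in 12 of 21, with Ccnd2 at -5.10 and Cdkn2c at 1.31. Of 20 clock genes, 4 rose and 11 fell. Arntl rose by 1.12 and Bhlhe40 was at 32.8 ± 6.83 against 991 ± 118. Of 15 immediate early genes, Atf3 was the member called higher, at 324, 409 and 306 against 125, 146 and 94.2.

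Outside the lists, the 12 protein-coding genes with the largest rises among those with a mean of at least 100 included Pdc, Kpna2, Pla2g7, Glb1l3, Gpsm2, Faim, Cdhr1, Hsp90aa1, Gnb1, Guca1a and Mns1, between 1.77 and 2.11. Pdc, Cdhr1, Gnb1 and Guca1a are known photoreceptor genes, which encode phosducin, a protocadherin of the disc rim, the transducin beta subunit and a guanylate cyclase activator. Kpna2, an importin alpha, was at 20190, 16058 and 16027 in rods and 5272, 3873 and 4499 in retina. Pla2g7, the secreted platelet-activating factor acetylhydrolase, was at 9759 ± 661 against 2681 ± 320, Gpsm2, a regulator of spindle orientation and G proteins, at 13708 ± 838 against 3860 ± 437, and Faim, an inhibitor of Fas-induced death, at 8622 ± 442 against 2436 ± 232. The 12 largest falls were C1ql1, Tnfrsf21, Pon2, Adam11, Fbln1, Rap1gap, Cartpt, Nsg1, Nnat, Lyve1, Sult4a1 and Gpx3, from -6.19 to -5.79. C1ql1, a secreted synaptic organizer, was at 1.08, 6.6 and 8.81 against 428, 725 and 353, and Pon2, a paraoxonase, at 8.66, 13.2 and 13.2 against 630, 787 and 1288. Cartpt, a neuropeptide of amacrine and ganglion cells, was at 10.6 ± 3.60 against 775 ± 225.

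Promoter sequence was read for the genes that moved together. RefSeq windows of 300 bases, 250 before to 50 after each start site in GRCm38.p6, were matched by symbol and searched on both strands for TAATCC, the core motif bound by CRX and OTX2. The motif was in 87 of 855 windows of genes more than 1 higher in rods (10.2%), in 254 of 4783 windows of genes more than 1 lower (5.31%), and in 848 of 14352 windows of all genes tested (5.91%). TGCTGAC, a MAF-type motif of the kind NRL binds, was in 4.33%, 4.31% and 3.83% of the same windows, and CACGTG, an E-box, in 9.12%, 7.55% and 9.5%. The motifs do not overlap one another in letters, and several windows can belong to 1 gene. These shares are a description with no test, and a match is not a binding site. Of these 12 rises, 10 had a window and 1 held TAATCC. The 4 windows below come from genes eligible for naming under the rule given with the processing, not from all genes tested. Among these, outside the rod markers and with a rod mean of at least 100, the largest rises whose only window holds the motif were taken. Some windows were left out of this choice, and the 4 are shown only to mark where the motif lies. TAATCC or its reverse complement GGATTA is in capitals.
Hmgb2: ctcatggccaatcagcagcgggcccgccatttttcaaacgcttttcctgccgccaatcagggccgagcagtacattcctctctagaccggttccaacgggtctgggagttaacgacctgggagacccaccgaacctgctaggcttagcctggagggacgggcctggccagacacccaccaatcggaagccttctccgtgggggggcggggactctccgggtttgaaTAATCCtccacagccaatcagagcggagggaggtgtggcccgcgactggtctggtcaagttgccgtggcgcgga
Guca1a: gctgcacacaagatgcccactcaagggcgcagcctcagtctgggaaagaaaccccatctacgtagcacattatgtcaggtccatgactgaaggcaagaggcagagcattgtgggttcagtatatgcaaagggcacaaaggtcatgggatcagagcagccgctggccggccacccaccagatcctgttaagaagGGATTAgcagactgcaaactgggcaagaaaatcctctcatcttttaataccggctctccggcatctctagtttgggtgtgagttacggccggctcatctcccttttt
Ccdc113: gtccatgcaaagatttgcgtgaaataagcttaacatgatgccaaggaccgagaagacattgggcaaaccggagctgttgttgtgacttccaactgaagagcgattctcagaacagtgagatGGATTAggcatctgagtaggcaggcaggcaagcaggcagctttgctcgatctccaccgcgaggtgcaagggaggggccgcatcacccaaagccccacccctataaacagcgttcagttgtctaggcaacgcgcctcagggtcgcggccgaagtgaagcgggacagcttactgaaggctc
Rbp3: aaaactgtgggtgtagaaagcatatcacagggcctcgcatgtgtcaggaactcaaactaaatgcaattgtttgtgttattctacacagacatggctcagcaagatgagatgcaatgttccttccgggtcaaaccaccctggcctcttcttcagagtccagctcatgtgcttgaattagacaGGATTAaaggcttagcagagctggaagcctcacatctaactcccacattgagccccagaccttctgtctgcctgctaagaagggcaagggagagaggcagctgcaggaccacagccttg
These windows are chr8:57511593-57511892 on the plus strand for Hmgb2, with the match starting 24 bases before the start site, chr17:47400557-47400856 on the minus strand for Guca1a (57 bases before), chr8:95533850-95534149 on the plus strand for Ccdc113 (129 bases before) and chr14:33953753-33954052 on the plus strand for Rbp3 (69 bases before). Rbp3, the retinoid carrier between photoreceptors and pigment epithelium, was at 186070, 212012 and 227280 in rods and 59809, 79101 and 53023 in retina. Guca1a was at 1898, 2268 and 2875 against 689, 781 and 570.

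Length moved with the difference between fractions, and base composition did so unevenly across libraries. The median difference was 0.24 in the tenth of genes with the shortest span on the genome (up to 1990 bases) and -2.01 in the tenth with the longest (over 131000 bases). It was -0.01 in the tenth with the lowest transcript GC content (up to 41.5%) and -0.73 in the tenth with the highest (over 57.8%). Removing each library's trend with GC gave 4588 genes higher and 5761 lower. The part of gene span in the family differences, many channels and adhesion genes being long, was not tested.

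The difference between rod TRAP and retina was also compared between genotypes. With limma's interaction term over all 12 libraries, 0 of 15692 genes (0%) passed an adjusted p of 0.05, and 560 had an unadjusted p below it. When no gene differs, a share of 0.05 of the genes tested is expected below that limit, which is more than 560. The counts of 2121 and 1797 given below exceed that share. Without Het rod TRAP replicate 3, 1 gene passed the adjusted threshold. Leaving out 1 library moved the 560 to between 201 (without KO retina replicate 2) and 2121 (without Het retina replicate 3), with 1797 without KO retina replicate 3, 211 without Het retina replicate 2, 314 without Het retina replicate 1 and 329 without KO retina replicate 1. Some list medians lay close in the 2 genotypes, at 1.78 in Het and 1.96 in KO for rod markers and at -5.88 and -5.99 for mitochondrially encoded genes. Others lay further apart, at -0.36 and 0.4 for immediate early genes, -2.55 and -1.14 for MHC genes and -2.75 and -4.07 for chemokines. Of the pigment epithelium markers, 9 of 9 were called lower in Het and 1 of 8 in KO, with medians of -3.23 and -3.47. Differences between list medians were not tested. Among the genes with the smallest interaction p was Lcp1, an actin-bundling protein of blood cells and microglia, at 26.0, 64.9 and 198 in Het rods and 18.7, 19.7 and 42.0 in Het retina (1.41, limma adjusted p = 0.09) and called higher with the replicate block, with a KO difference of -2.58 (limma interaction, adjusted p = 0.78). Ptpn11 itself was at 2718, 2682 and 2676 in Het rods and 2129, 2361 and 1983 in Het retina, a difference of 0.32 (SE 0.11, adjusted p = 0.03) that was too small for a call, and 0.15 in KO.

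**Figure D5:**
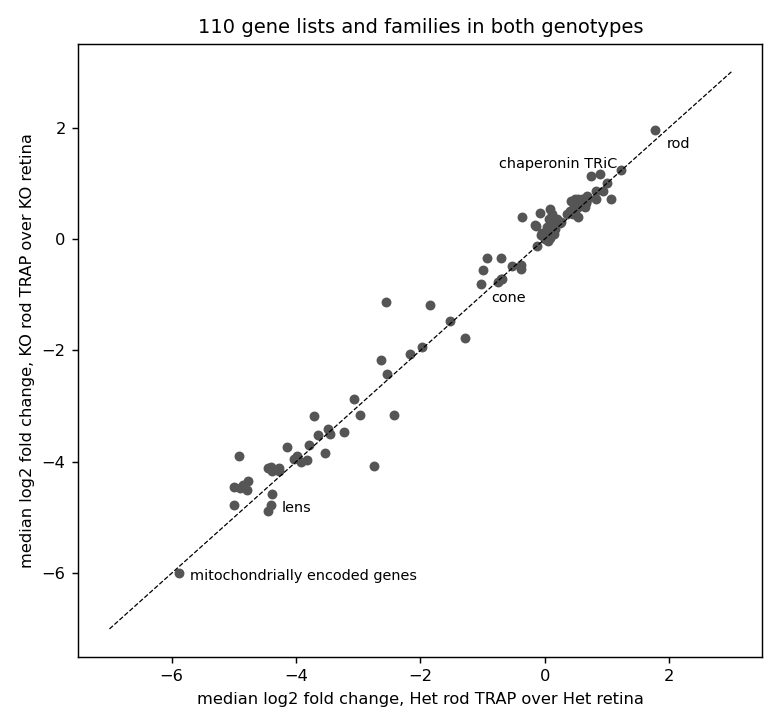
Median log2 fold change of rod TRAP over retina in Het mice (horizontal axis) and KO mice (vertical axis) for 110 gene lists and families with at least 5 tested members, each a point, with the line of equality dashed. The genotypes share no library, and rod markers lie at 1.78 and 1.96.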

How the data were processed

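RNA sequencing values of 6 Het libraries (3 rod TRAP, 3 retina) were analysed, with 6 KO libraries for the side-by-side values. Samples were grouped by their labelled genotype and source tissue, and replicate numbers 1 to 3 from the sample titles. RNA was converted with the SMART-Seq v4 kit, and the submitters' processing notes name CASAVA 1.8.2, HISAT2, DESeq2, edgeR and GRCm39. The count tool, annotation and strand setting are not given in the sources used here.

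The deposited values are a signal: read numbers per gene that the authors multiplied by 1 factor per library and rounded, which was inferred from the values and is not stated. No count model was therefore used. Reads behind each library were estimated from the integers that low values take. TMM factors, computed by a script of this work, put the libraries on 1 scale, and log2(value + 2) was tested with limma 3.58.1 (trend and robust) in R 4.3.3. Genes entered with a value of about 10 in at least 3 libraries and a sum of at least 15. Class shares were compared with an exact two-sided permutation test. Gene lists and families were described by counts and medians, without set tests. The code was tested on simulated data.

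The members and lists were chosen with earlier results of these data known. Genes were named by 1 rule: the highest members and the largest called changes of each list, all members of lists of up to 15 tested genes, the 12 largest rises and falls outside the lists with a mean of at least 100, the 10 highest genes per length, Ptpn11 and Rpl22, and up to 5 genes with the smallest interaction p. Biotypes, lengths and GC content came from GENCODE vM21 on GRCm38, matched by Ensembl identifier for 52125 of 56748 genes (91.85%), and promoter windows from RefSeq on GRCm38.p6. Same-numbered rod and retina libraries deviated together, with correlations of 0.468, 0.412 and 0.251, so the numbers were taken to pair samples. Other combinations had a mean of -0.19. Deviations were taken from the group means, which ties this value to the same-numbered ones, so it is not an independent baseline. A fit with the replicate number as a block is given where it changes the call of a gene named here, and for some of the lists. The alternatives were other scalings, pseudocounts, filters and moderation, a GC correction, the replicate block and the removal of each library. The table held 0 columns of other samples. Some genes are not reported here.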

Additional observations from a re-analysis of the deposited data

How the results depend on the processing

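The main sensitivity was to scaling. When libraries were scaled by their totals alone, 1157 genes were higher in Het and 1125 in KO, against 3453 and 4144, and 13 of the 174 genes named in the text lost their call, namely Cacna1f, Cox5b, Cox6a1, Msi2, Otx2, Thrb, Rab28, Stx3, Syp, Tcp1, Tfrc, Tubb5 and Gm12912. A size threshold of 1 left 1032 genes higher. RLE and upper quartile scaling, pseudocounts of 0.5 and 8, no filter or a filter at about 50, and limma without trend and robust fitting gave 2636 to 3777 genes higher and 4134 to 8763 lower, and removing the GC trend gave 4588 and 5761. The replicate block, which uses the pairing of same-numbered libraries, gave 3680 genes higher and 6149 lower (with the GC trend removed as well, 4683 and 5839), and beside the calls given with the results above (lens markers, glycolysis, cytosolic ribosomal proteins, Lcp1) it changed no other call of a gene named here. Counts of other lists moved with the block as well. Extracellular matrix genes had 3 higher and 25 lower in place of 2 and 23, and Polycomb genes 10 and 3 in place of 8 and 3. Glutamate receptors had 2 higher and 23 lower in place of 1 and 23, and complement and interferon genes 2 and 19 in place of 1 and 19. Leaving out each library in turn gave 3109 to 4133 higher and 5847 to 6214 lower, and for the difference between genotypes 0 to 1 genes. Among named genes Dnajb9, Cox6a1, Cacna1f, Tubb5 and Gm12912 lost their call without at least 1 of the libraries. Of the 174 genes, 156 kept their call under every alternative fit in which they were tested. The size threshold of 1 was not among these fits, and named genes with smaller differences would not be called at it. Of 113 lists and families, the median of 28 changed sign under at least 1 alternative, 20 of them under scaling by totals. With mitochondrial and crystallin genes left out of both the classes and the total, the difference in share between rod TRAP and retina was -0.0555 percentage points for the share of lens marker list genes, -0.892 for the share of long noncoding biotypes and -0.862 for the share of markers of non-photoreceptor retinal types, against -1.19, -0.739 and -0.764. The lens list holds crystallins, so its move follows from leaving them out. In the other classes only the total changed, and it shrank more in retina, which raises the retina shares. Mitochondrially encoded genes took a mean of 7.47% of the retina totals and 0.0803% of the rod totals, and lens markers 1.21% and 0.0177%. With 3 libraries a group the exact test of shares cannot go below 0.1.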

Other observations

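Of the 23 genes called higher by more than 2 on the log2 scale, 16 were annotated as processed pseudogenes and 7 as protein-coding (Pdc, Hmgb2, Cnga1, Dynlrb2, Arl13a, Pifo and Gm4756). The pseudogenes varied widely between rod libraries, with replicate 3 highest in all 16. Of the 16, 10 were tested in the KO mice and 3 were called higher there. The median of these 10 was 2.64 in Het and 0.84 in KO. Rps12-ps19 was at 80.1, 68.2 and 346 in rods and 10.7, 0.94 and 27.1 in retina (3.62, SE 0.87, adjusted p = 0.006), and Gm12912 at 146, 267 and 980 against 22.3, 6.58 and 120 (3.53, a call lost without retina replicate 1 or 2 or rod TRAP replicate 2). Reads shared with a parent gene, if any, cannot be told apart from reads of the pseudogene itself.

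Arl13a, a relative of the ciliary GTPase Arl13b, was at 27.1, 27.5 and 52.8 in rods and 15.1, 0.94 and 11.2 in retina (2.05, adjusted p = 0.0213), and Pifo, a gene of ciliary disassembly, at 45.5, 48.4 and 36.3 against 15.1, 18.8 and 1.87 (2.02, adjusted p = 0.0161). These genes were picked after their values were seen.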
